A study of Mus musculus with 6 samples.

Results

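RNA of the DNA methylation machinery was examined in mouse hippocampus through 9 genes chosen by name: the methyltransferases Dnmt1, Dnmt3a and Dnmt3b, the dioxygenases Tet1, Tet2 and Tet3, and the readers Uhrf1, Mbd1 and Mbd2. All 9 were among the 32066 named features of the deposited count table, and all 9 passed the filter on low counts that left 18629 features for testing. The samples were poly(A) RNA libraries of whole hippocampus from ovariectomised wild type female C57BL/6J mice aged 17 weeks. The OVX+RJ group of 3 libraries came from mice given food with 1% royal jelly from 8 weeks of age, and the OVX group of 3 libraries came from mice on the control diet. All 6 libraries thus come from animals without ovaries, and a sham-operated group named in the protocols was not analysed here. The labels call the libraries of a group biological replicates, and do not say whether an animal gave each. The libraries held 34718592.5 to 58163779 counts. OVX+RJ 1 stood apart, with a mean correlation across genes of 0.983 with the other libraries against 0.986 to 0.987 for the rest.

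Methylation of cytosine, mostly in the dinucleotide CpG, is set on unmethylated DNA by Dnmt3a and Dnmt3b and copied to the new strand after replication by Dnmt1, which Uhrf1 brings to hemimethylated sites. Tet enzymes oxidise 5-methylcytosine, a first step of its removal, and proteins with a methyl-CpG-binding domain such as Mbd1 and Mbd2 read the mark. In neurons, which do not divide, Dnmt3a and the Tet enzymes remain in use, and the mark changes with activity. In honeybees, larvae fed royal jelly become queens, and lowering the bee Dnmt3 in larvae gives queen-like adults, which is why these genes are of interest for a royal jelly diet. Only RNA was measured here, not methylation.

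Promoter windows of Tet3 and Dnmt1 are shown. These members were taken because their levels, scaled for library composition, did not overlap between the diets, at Dnmt1 only narrowly, as described further on. Sequences are RefSeq's on GRCm38.p6, from 250 bases before to 50 bases after an annotated start, 5′ to 3′, with each CpG, the dinucleotide these enzymes act on, in capitals. For Dnmt1 the CpG-rich window of the start farthest downstream and the CpG-poor window of the start farthest upstream are given.
Tet3 (chr6:83441629-83441928, minus strand): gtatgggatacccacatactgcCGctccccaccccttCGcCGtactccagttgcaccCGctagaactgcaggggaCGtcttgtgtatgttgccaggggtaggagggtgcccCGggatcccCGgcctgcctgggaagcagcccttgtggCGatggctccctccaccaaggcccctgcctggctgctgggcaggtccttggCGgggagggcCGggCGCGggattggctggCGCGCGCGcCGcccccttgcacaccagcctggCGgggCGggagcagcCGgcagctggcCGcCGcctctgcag
Dnmt1, downstream start (chr9:20952574-20952873, minus strand): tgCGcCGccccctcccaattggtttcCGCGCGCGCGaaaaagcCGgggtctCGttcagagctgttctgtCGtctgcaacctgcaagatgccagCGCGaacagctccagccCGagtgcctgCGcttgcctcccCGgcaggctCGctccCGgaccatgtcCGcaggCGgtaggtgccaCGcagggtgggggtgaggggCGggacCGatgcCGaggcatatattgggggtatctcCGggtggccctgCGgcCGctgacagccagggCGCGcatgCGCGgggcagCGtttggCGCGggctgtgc
Dnmt1, upstream start (chr9:20959839-20960138, minus strand): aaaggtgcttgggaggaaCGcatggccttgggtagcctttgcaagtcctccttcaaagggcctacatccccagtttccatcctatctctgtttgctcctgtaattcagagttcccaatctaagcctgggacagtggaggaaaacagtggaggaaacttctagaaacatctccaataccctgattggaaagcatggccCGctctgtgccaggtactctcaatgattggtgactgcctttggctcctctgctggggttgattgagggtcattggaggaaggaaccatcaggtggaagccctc
The Tet3 window held 22 CpGs, a number that 23.1% of the 32851 mouse promoter windows reached. The downstream Dnmt1 window held 33, reached by 8.56% of windows, and the upstream one held 2, reached by 85.9%. A Dnmt1 window between these, not printed, held 12, reached by 39.6%. The downstream window lies inside the gene as read from the upstream starts, so it can hold transcribed sequence. Its 33 CpGs therefore need not be those of a promoter in use, and the window between may serve that role instead. The counts do not separate the starts, so which Dnmt1 promoter the RNA came from was not measured.

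The 7 members with an entry in the promoter table, all but Mbd1 and Mbd2, had 12 windows in all, with 2 to 57 CpGs against a median of 7 over all windows. Tet2 had the highest number, 57, which 0.152% of windows reached. The 3 windows of Dnmt3a held 46, 47 and 18, and the window of Dnmt3b held 30. The GC box GGGCGG, which holds a CpG itself and was sought on both strands, was present in 10 of the 12 windows and in 35.7% of all windows. Some Dnmt3a windows share bases, so the 12 are not independent, and the share over all windows was not matched for GC or CpG content. The E2F motifs TTTCCCGC and TTTGGCGC, sought on both strands and also holding a CpG, were present in 1.56% of all windows. Of the 12 member windows they were present in 1, the downstream Dnmt1 window, which can hold transcribed sequence. The cyclic AMP response element TGACGTCA was in 0 of the 12 and in 1.79% of all windows.

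Levels between genes can be compared only per length, and here as CPM, the usual count scaled by the library total, per kilobase of exon. On that scale Mbd2 and Mbd1 led, at means over the 6 libraries of 15.9 and 9.96 CPM per kilobase. Dnmt1 followed at 7.13, Dnmt3a at 5.99, Tet3 at 5.26 and Tet2 at 4.29 CPM per kilobase. Tet1 was lower, at 0.816, and Uhrf1 and Dnmt3b were lowest, at 0.233 and 0.173 CPM per kilobase. Thus 1 maintenance and 1 de novo enzyme were well expressed, while the maintenance cofactor Uhrf1, best known from dividing cells, and the de novo enzyme Dnmt3b, best known from embryos, were rare. Among neighbours in this order, the ranges over libraries overlapped for Dnmt3a and Tet3 (5.29 to 6.47 and 4.87 to 5.81) and for Uhrf1 and Dnmt3b (0.194 to 0.308 and 0.119 to 0.280), and not for the others. Dnmt3b rested on 21 to 50 counts and Uhrf1 on 28 to 67 counts per library, so that counting error alone is 21.8% and 18.9% at the lowest of these counts. The other 7 had 438 counts or more in each library. Lengths are unions of the exons of protein-coding transcripts in GENCODE M21, a release for another build than the counts, and the isoforms in use were not measured.

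**Figure D1:**
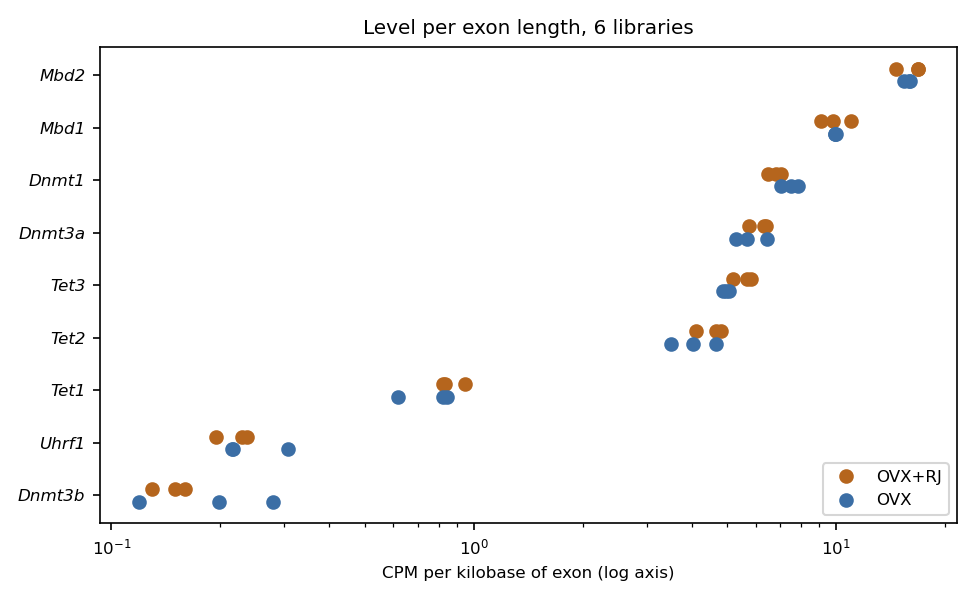
CPM per kilobase of exon (log axis) for the 9 genes, with a dot per library, OVX+RJ above OVX. Mbd2 lies at 14.6 to 16.8 and Dnmt3b at 0.119 to 0.280, and at each gene the 2 diets lie close together beside the spacing between Tet2, Tet1 and Uhrf1.

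Setting OVX+RJ against OVX asks whether the diet changed the RNA of these genes in hippocampus after ovariectomy. By the quasi-likelihood test of edgeR, adjusted after Benjamini and Hochberg over all 18629 genes, none of the 9 reached the threshold of 0.05, and 0 of all genes did, 0% of those tested. DESeq2 called 13 genes over the table and limma-voom 0, and neither called a member. At an unadjusted p under 0.05 by edgeR there was 1 member, Tet3, with higher values in OVX+RJ, in a table where 4.05% of genes had such a p, 2.14% higher and 1.91% lower. Levels scaled by TMM, a normalization for library composition, did not overlap between diets at 2 members, Tet3 with higher and Dnmt1 with lower values in OVX+RJ, where 10.1% of all tested genes did not overlap, 4.9% higher and 5.17% lower. No test of these counts against that share was made. The median log2 fold change, OVX+RJ over OVX, was 0.038 over the members, 6 positive and 3 negative, and -0.0015 over all genes tested, of which 49.6% were positive and 50.4% negative.

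**Figure D2:**
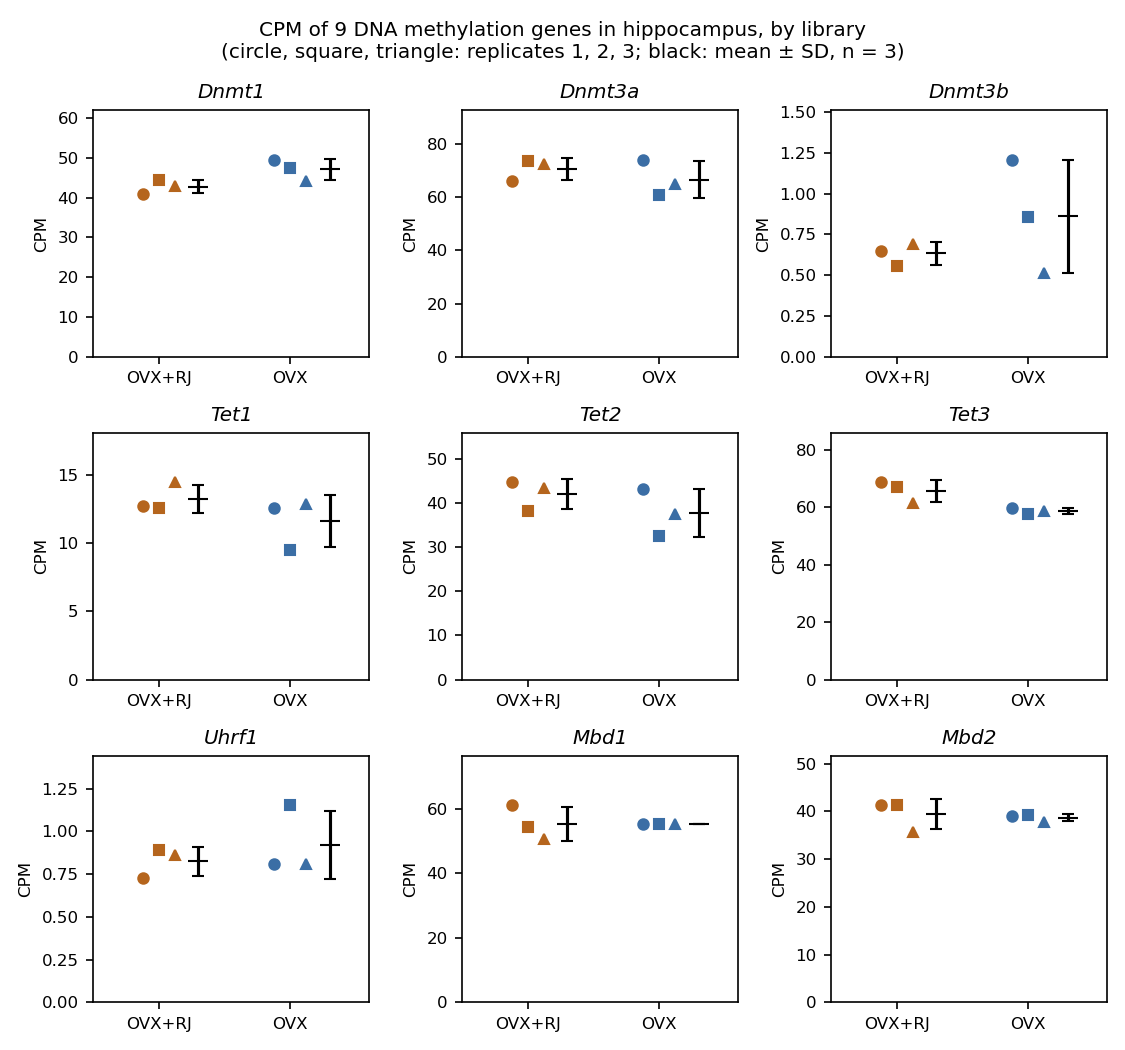
CPM of each gene per library, OVX+RJ left of OVX, with the mean ± SD (n = 3 each) in black and each axis starting at 0. Tet3 is at 61.6 to 68.7 CPM in OVX+RJ and 57.5 to 59.8 CPM in OVX, and at Dnmt1 the lowest OVX library and the highest OVX+RJ library meet at 44.3 CPM.

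Of the writers, Dnmt1, the maintenance methyltransferase, stood at 40.9, 44.3 and 43.0 CPM in OVX+RJ 1, 2 and 3, and at 49.6, 47.4 and 44.3 CPM in OVX 1, 2 and 3. On library totals alone OVX+RJ 2 and OVX 3 were level, and with TMM scaling the diets did not overlap, by a narrow margin. Relative to the mean of the 6 libraries on that log2 scale, OVX+RJ 2 was at -0.025 and OVX 3 at -0.017. Dnmt1 averaged 42.8 ± 1.72 CPM in OVX+RJ libraries, against 47.1 ± 2.65 CPM in OVX libraries (SD, n = 3 each). The log2 fold change was -0.13 with a 95% interval of -0.29 to 0.035, an unadjusted p of 0.0981 and an adjusted p of 0.986 by edgeR. The interval runs from a fold of 0.818 to 1.02 and includes no change. Intervals here are limma's for single genes, without adjustment for the number of genes.

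Dnmt3a, the main de novo methyltransferase of neurons, stood at 66.1, 73.8 and 72.5 CPM in OVX+RJ and at 74.3, 60.8 and 65.2 CPM in OVX. The highest library was an OVX library and the groups overlapped. Dnmt3a averaged 70.8 ± 4.11 CPM in OVX+RJ libraries, against 66.7 ± 6.87 CPM in OVX libraries, and its log2 fold change was 0.098 (95% interval -0.077 to 0.28). It was 0.036 without OVX 2 and 0.17 without OVX 1. Dnmt3b had 25, 22 and 25 counts in OVX+RJ and 42, 50 and 21 counts in OVX, which is 0.634 ± 0.0684 CPM in OVX+RJ libraries and 0.862 ± 0.347 CPM in OVX libraries. The OVX libraries of Dnmt3b spanned the OVX+RJ ones on both sides, and the log2 fold change of -0.42 has an interval of -1.14 to 0.47, which allows folds from 0.454 to 1.39. The log2 fold change was -0.12 without OVX 1 and -0.68 without OVX 3.

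Of the erasers, Tet3, the Tet enzyme with most RNA per length here, stood at 68.7, 66.9 and 61.6 CPM in OVX+RJ and at 59.8, 57.5 and 58.7 CPM in OVX. Each OVX+RJ library was above each OVX library, with the nearest pair OVX+RJ 3 and OVX 1. Tet3 averaged 65.7 ± 3.70 CPM in OVX+RJ libraries, against 58.7 ± 1.16 CPM in OVX libraries (SD, n = 3 each). Its log2 fold change was 0.18 (SE 0.072, 95% interval 0.016 to 0.33). By edgeR its unadjusted p was 0.0315, rank 445 of 18629, and its adjusted p 0.986, so it was not called. OVX+RJ 1, the library that stood apart from the others, was the highest, and without it the log2 fold change was 0.13 with an unadjusted p of 0.0765 in edgeR's test. The unadjusted p was also above 0.05 without OVX+RJ 2 (0.0711), OVX 1 (0.0592), OVX 2 (0.0832) and OVX 3 (0.0623) in turn, and it was 0.0139 without OVX+RJ 3, by the same edgeR test.

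Tet2, which lacks the CXXC DNA-binding domain of its relatives, stood at 44.7, 38.2 and 43.3 CPM in OVX+RJ and at 43.3, 32.6 and 37.5 CPM in OVX. Tet1 stood at 12.8, 12.6 and 14.5 CPM in OVX+RJ and at 12.6, 9.47 and 12.9 CPM in OVX. At both genes OVX 2 was the lowest of the 6 libraries and the groups overlapped. The log2 fold changes were 0.17 for Tet2 (95% interval -0.066 to 0.41) and 0.20 for Tet1 (95% interval -0.095 to 0.51), and without OVX 2 they were 0.074 and 0.069. All 3 Tet genes were thus positive, with fold changes of 1.15 for Tet1, 1.13 for Tet2 and 1.13 for Tet3, and none was called.

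Of the readers, Uhrf1 had 28, 35 and 31 counts in OVX+RJ and 28, 67 and 33 counts in OVX. Uhrf1 averaged 0.825 ± 0.0859 CPM in OVX+RJ libraries, against 0.923 ± 0.198 CPM in OVX libraries, and OVX 2 alone was above the OVX+RJ range. The log2 fold change was -0.16 (95% interval -0.80 to 0.54), and without OVX 2 it was 0.042. Mbd1, a reader whose loss in mice lowers adult hippocampal neurogenesis, stood at 61.1, 54.5 and 50.6 CPM in OVX+RJ and at 55.4, 55.2 and 55.4 CPM in OVX. The OVX libraries agreed closely and lay inside the OVX+RJ range, and the log2 fold change was 0.014 (95% interval -0.18 to 0.19). Mbd2, which joins methylated DNA to the NuRD repressor complex, stood at 41.2, 41.3 and 35.7 CPM in OVX+RJ and at 39.0, 39.3 and 37.8 CPM in OVX, again inside the range of OVX+RJ. Its log2 fold change was 0.038 (95% interval -0.15 to 0.22), and without OVX+RJ 1 those of Mbd1 and Mbd2 were -0.075 and -0.0069.

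**Figure D3:**
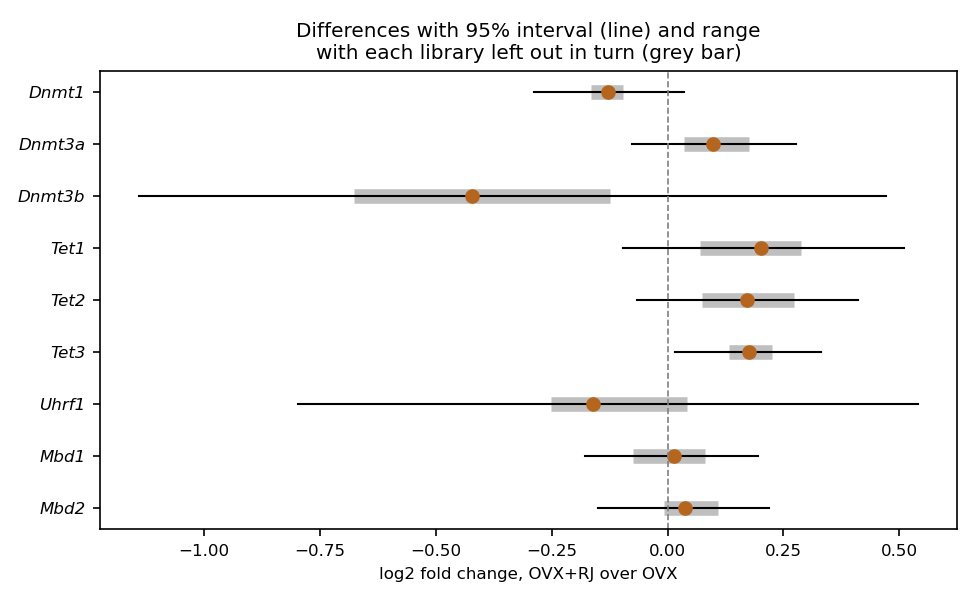
Log2 fold change of each gene, OVX+RJ over OVX (dot), with limma's 95% interval (line) and the range over fits that leave out each library in turn (grey bar). The interval of Tet3, 0.016 to 0.33, is the only one of the 9 that leaves out 0, and it is not adjusted for the number of genes.

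For the 7 members with 438 counts or more per library, the intervals bound the size of change these libraries allow. Apart from Tet1 and Tet2, whose upper bounds were folds of 1.42 and 1.33, the upper bounds of these genes were at most 1.26 (Tet3) and the lower bounds at least 0.818 (Dnmt1).

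Between libraries of the same diet the members did not all move together. Relative to its mean over the 6 libraries on the log2 CPM scale, OVX 2 was at -0.39 for Tet1, -0.29 for Tet2, -0.18 for Dnmt3a and -0.11 for Tet3, the lowest library at each of the 4, and at 0.39 for Uhrf1, the highest there. OVX 2 was also the most deeply sequenced library, with 58163779 counts. OVX+RJ 1 was the highest library for Tet2, Tet3, Mbd1 and Mbd2, at 0.20, 0.18, 0.18 and 0.11, and the lowest for Dnmt1 and Uhrf1, at -0.099 and -0.21. Dnmt3b spread most, from 0.70 in OVX 1 to -0.44 in OVX 3.

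**Figure D4:**
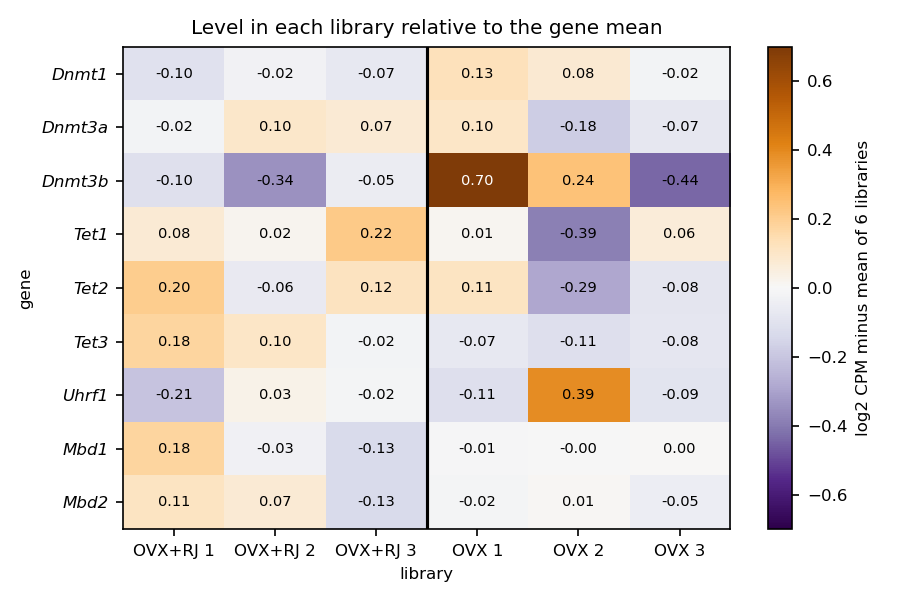
Log2 CPM of each gene in each library minus the gene's mean over the 6 libraries, OVX+RJ left of the black line and OVX right of it. Colour runs from purple (lower) to orange (higher), with the extremes at Dnmt3b in OVX 1 (0.70) and OVX 3 (-0.44).

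Across the 36 pairs of members, Pearson's r of log2 CPM over the 6 libraries ran from -0.87 (Tet2 and Uhrf1) to 0.81 (Mbd1 and Mbd2), with 16 pairs positive. These values describe 6 libraries that share tissue, dissection and depth differences. Among 15044 other tested genes with a name that is not a clone or predicted-gene number, those closest in pattern to Tet3 over the 6 libraries were Tmem160, She and Hnrnpll, at an r of 0.994, 0.992 and 0.991. Those closest to Dnmt1 were Cfap100, Fchsd1 and Rps27a, at an r of 0.999, 0.995 and 0.993. These are the highest of 15044 correlations over only 6 libraries, so a high r is no sign of a link. Tet3 and Dnmt1 were taken for their low p between diets, so genes of like pattern share that difference. The counts of Rps27a are uncertain, because it has processed pseudogenes.

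Whole hippocampus holds many cell types, and fewer cells of a type and less RNA per cell cannot be told apart. All markers of neurons, granule and pyramidal cells and glia listed for the tissue were detected. Beside the higher Tet3 values, the 6 neuron markers, none at 0, summed to 5764 to 6056 CPM in OVX+RJ. In OVX they summed to 5744 to 5757 CPM, and 5 of 6 were positive. Their mean log2 CPM, with each marker counted equally and centred on the 6 libraries, overlapped between diets. It ran from -0.059 to 0.095 in OVX+RJ and from -0.041 to 0.013 in OVX. Beside the lower Dnmt1 values, the 4 pericyte markers, none at 0, summed to 134 to 143 CPM in OVX+RJ and 149 to 158 CPM in OVX, with 4 of 4 negative. The 5 astrocyte markers summed to 1308 to 1372 CPM in OVX+RJ and 1402 to 1420 CPM in OVX, with 1 of 5 positive. The mean log2 CPM of the pericyte markers did not overlap either, at -0.15 to -0.060 in OVX+RJ and 0.073 to 0.14 in OVX. Nor did that of the astrocyte markers, at -0.11 to 0.0053 in OVX+RJ and 0.022 to 0.065 in OVX. The 5 microglia markers summed to 176 to 188 CPM in OVX+RJ and 191 CPM in each OVX library, with 2 of 5 positive. The mean log2 CPM of the microglia markers overlapped, at -0.071 to 0.090 in OVX+RJ and -0.10 to 0.060 in OVX. Sums overlapped for the 5 endothelial markers (112 to 137 CPM in OVX+RJ and 134 to 137 CPM in OVX, 4 of 5 negative) and the 5 dentate granule cell markers (324 to 480 CPM in OVX+RJ and 368 to 499.7 CPM in OVX, 5 of 5 negative). They also overlapped for the 4 choroid plexus markers, at 24.9 to 51.8 CPM in OVX+RJ and 24.5 to 34.2 CPM in OVX, with 4 of 4 positive. The 5 oligodendrocyte markers summed to 3359.5 to 4504.9 CPM in OVX+RJ and 2784.7 to 4604.5 CPM in OVX, with 5 of 5 positive. The 4 red blood cell markers summed to 50.5 to 59.1 CPM in OVX+RJ and 55.6 to 67.7 CPM in OVX, with 4 of 4 negative. Sums for markers of pyramidal cells, oligodendrocyte precursors and other brain regions overlapped as well. The mean log2 CPM of the endothelial markers did not overlap, at -0.24 to 0.041 in OVX+RJ and 0.045 to 0.14 in OVX. That of markers of other brain regions did not overlap, at -0.17 to -0.061 in OVX+RJ and -0.0017 to 0.18 in OVX. The part of these cell types in the values of Tet3 and Dnmt1 was not tested. The 16 genes of S phase and division, in which Uhrf1 and Dnmt1 act, summed to 103 to 112 CPM in OVX+RJ and 104 to 111 CPM in OVX, with 9 positive.

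The rest of the pathway, in lists of partner genes, gave no called gene either: over 9 lists, neither edgeR nor DESeq2 nor any other fit run called a gene in either direction. Of 9 other methyl-CpG readers 4 were positive, with -0.022 as their median log2 fold change and 0 at an unadjusted p under 0.05. Zbtb38, a zinc finger reader, and Uhrf2, a relative of Uhrf1, were at log2 fold changes of 0.080 and -0.13, and Uhrf2 was at 0.0030 without OVX+RJ 1.

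Of 13 tested partners of the methyltransferases 6 were positive, with a median of -0.0094. Ehmt1, a histone methyltransferase of repressed chromatin, had 32.9 ± 1.65 CPM in OVX+RJ libraries, against 37.5 ± 2.95 CPM in OVX libraries, and a log2 fold change of -0.18 with an unadjusted p of 0.0496 and an adjusted p of 0.986 by edgeR. Ehmt1 was the 1 gene of this list at an unadjusted p under 0.05 in the main edgeR fit. With DESeq2, limma-voom or the replicate block no gene of the list was. Cdca7, which activates the remodeller Hells, and Zfp57, which protects methylation at imprinted regions, were at log2 fold changes of 0.36 and -0.20, and ran from 0.16 to 0.54 and from -0.30 to -0.0080 with each library left out in turn.

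Of 15 tested genes that act in the removal of oxidised or deaminated cytosine 9 were positive, with a median of 0.042, and the diets did not overlap at 6 of them, against 10.1% of all tested genes. The 5 with higher values in OVX+RJ were Tdg, Ung, Apex1, Gadd45b and Cxxc5, and the 1 with lower values was Lig3. At an unadjusted p under 0.05 by edgeR there were 1 higher, Gadd45b, and 1 lower, Lig3, against 4.05% of all tested genes. Apex1 was at a log2 fold change of 0.095 with an unadjusted p of 0.297 by edgeR. The summed CPM of the list overlapped, at 680 to 757 in OVX+RJ and 728 to 771 in OVX. The list was written with earlier results for Gadd45b known, so its count is a description. Gadd45b, an activity-induced gene tied to demethylation in the mouse dentate gyrus, stood at 19.96, 13.0 and 12.6 CPM in OVX+RJ and at 11.5, 11.3 and 9.08 CPM in OVX. Each OVX+RJ library was above each OVX library, and OVX+RJ 1 was far above the other 2. Its log2 fold change was 0.53 (unadjusted p 0.0149 and adjusted p 0.986 by edgeR), and without OVX+RJ 1 it was 0.27. Lig3, a ligase of base excision repair, was 21.2 ± 3.39 CPM in OVX+RJ libraries, against 26.5 ± 2.94 CPM in OVX libraries, with a log2 fold change of -0.31 and of -0.19 without OVX+RJ 1. Ung, the uracil glycosylase, had 41, 42 and 30 counts in OVX+RJ and 11, 38 and 30 counts in OVX, which is 1.07, 1.07 and 0.831 CPM in OVX+RJ, against 0.317, 0.653 and 0.736 CPM in OVX. Tdg, the glycosylase that excises the products of Tet enzymes, stood at 46.4, 41.0 and 40.9 CPM in OVX+RJ and at 40.6, 37.9 and 38.3 CPM in OVX. Its log2 fold change was 0.15 (95% interval -0.040 to 0.33), with an unadjusted p of 0.0966 and an adjusted p of 0.986 by edgeR. Tdg is named outside the rule, after its values were seen, because its step follows that of Tet enzymes.

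Of 13 tested genes of the methyl donor cycle, which makes S-adenosylmethionine, 3 were positive, with a median of -0.055 and 0 at an unadjusted p under 0.05. Nnmt, which spends the methyl donor on nicotinamide, had 41, 43 and 34 counts in OVX+RJ and 17, 51 and 12 counts in OVX. In CPM these were 1.07, 1.09 and 0.942 in OVX+RJ and 0.490, 0.877 and 0.294 in OVX, without overlap, and the log2 fold change of 0.88 was not called. Mtr, methionine synthase, and Ahcyl2, a relative of the enzyme that clears S-adenosylhomocysteine, were at -0.22 and -0.11, and at -0.13 and -0.067 without OVX+RJ 1. Of 13 subunits of NuRD 7 were positive, with a median of 0.0036, and the remodeller Chd4 was at 0.087, Gatad2b at 0.10 and the remodeller Chd3 at -0.071. Of 11 genes around alpha-ketoglutarate, the cosubstrate of Tet enzymes, 8 were positive, with log2 fold changes from -0.094 to 0.058. Idh3g, Idh3a and Idh3b, subunits of a mitochondrial isocitrate dehydrogenase, were at -0.094, 0.058 and -0.040, and with each library left out ran from -0.16 to -0.012, from 0.030 to 0.094 and from -0.057 to -0.011.

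Genes whose own expression can depend on methylation were set beside the enzymes. The list of imprinted genes holds genes that can be expressed from 1 parental allele, though not all need be so in this tissue. Of the 35 tested, 16 were positive, with a median of -0.0096 and a range of -0.30 to 0.16. By edgeR 0 had an unadjusted p under 0.05. The diets did not overlap at 2 of them, Copg2 and Inpp5f, with higher values in OVX+RJ, against 10.1% of all tested genes. Peg3 was 327 ± 15.8 CPM in OVX+RJ libraries, against 299 ± 29.1 CPM in OVX libraries, with a log2 fold change of 0.14, and Inpp5f and Nnat were at 0.12 and -0.13. Counts do not separate alleles, so imprinting itself was not measured. Of 16 germline genes that promoter methylation silences in body tissues, 12 were in the table and 7 passed the filter. Of these 7, 3 were positive and 4 negative, with a median of -0.069. Sycp3, of the meiotic chromosome axis, had 31, 20 and 37 counts in OVX+RJ and 10, 27 and 14 counts in OVX, an overlap at OVX 2 in counts though not in CPM, with a log2 fold change of 1.07, an unadjusted p of 0.0265 and an adjusted p of 0.986 by edgeR. Its levels were at most 1.03 CPM, and Brdt and Ddx4 of the same list were at 0.13 and -0.25. Of 16 tested S phase and division genes 9 were positive, with a median of 0.035, and Mki67, Rrm2 and Birc5 were at 0.43, -0.68 and 0.47, none called.

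**Figure D5:**
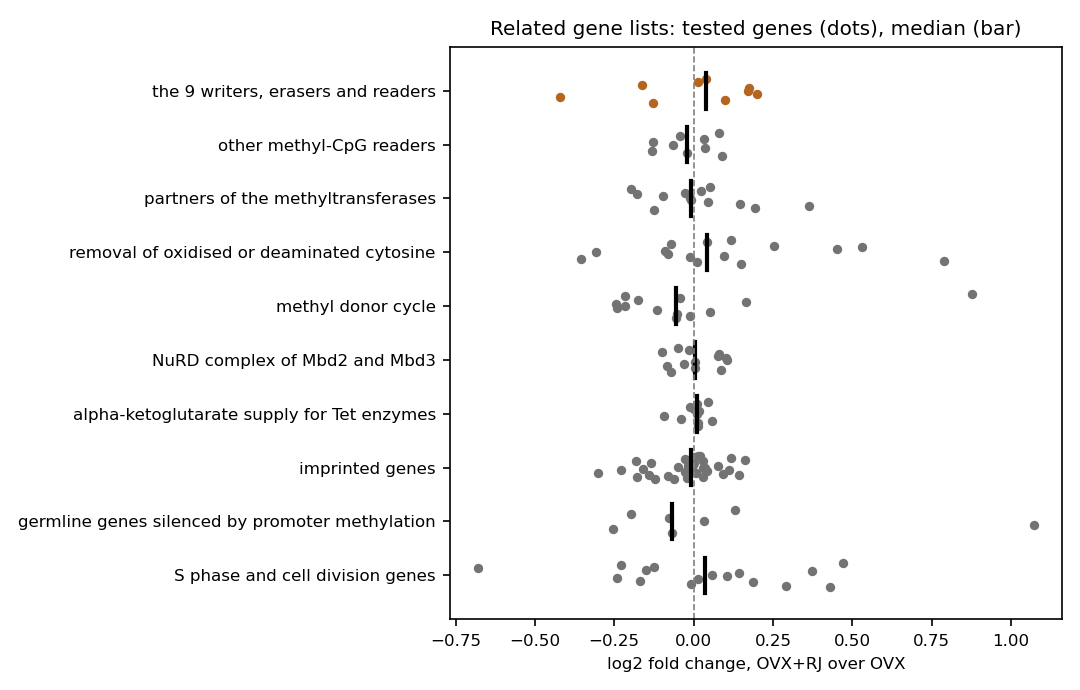
Log2 fold change, OVX+RJ over OVX, of each tested gene (dots) in the 9 writers, erasers and readers (top) and in 9 related lists, with the median of each list as a black bar. Medians lie between -0.069 and 0.042, and no gene shown reached the adjusted threshold of 0.05 by edgeR.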

How the data were processed

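Hippocampal poly(A) RNA of 6 libraries, 3 OVX+RJ and 3 OVX, was analysed from a table of expected counts per gene symbol deposited by the authors, not scaled between libraries. HISAT2 2.2.1, StringTie 2.2.1, fastp 0.23.4, bcl2fastq 2.19 and GRCm39 are named, without roles, per the submitters' processing notes. The annotation, the strand setting and the handling of multiply aligned reads were not stated there. Values at 51 of 32067 features were not whole, and all were rounded. A row that names no gene, with 1.05e-05% of counts, was left out.

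The analysis used edgeR 4.0.16 in R 4.3.3 (filterByExpr, TMM, glmQLFit and glmQLFTest at installed defaults, Benjamini-Hochberg over 18629 genes, threshold 0.05). Standard errors and 95% intervals come from limma 3.58.1 on log2 CPM (prior count 2). CPM are per library total over all named rows. An exact permutation test of 3 against 3 gives no two-sided p under 0.1 and was not used. The test was tested on simulated counts. No 2 libraries agreed within sampling noise: the chi-square per degree of freedom was 7.67 or more for each pair.

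The members and lists were chosen with earlier results of these data known. The rule for named genes takes all 9 members, the 3 genes with the lowest p of each related list, and the 3 genes closest in pattern to each of the 2 members with the lowest p. A gene that this rule takes is not reported here. In GENCODE M21 the exons of Dnmt3a and Tet2 overlap antisense genes, which average 1.67 and 1.17 counts in the table, and those of the other members overlap no other gene. Alternatives were DESeq2 1.42.0, limma-voom, other scalings, filters and empirical Bayes settings, a replicate block, each library left out, and a threshold of 0.10.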

Additional observations from a re-analysis of the deposited data

How the results depend on the processing

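No member was called in any of the 17 alternatives, the threshold of 0.10 included. Over all genes the count of calls was 0 by edgeR, 13 by DESeq2, 3 with robust empirical Bayes, 1 with the replicate block, and from 0 to 8 with a library left out, 8 without OVX+RJ 2. Dnmt1, Dnmt3a, Dnmt3b and the 3 Tet genes kept their direction in each fit in which they were tested (Dnmt3b and Uhrf1 fell under the filter of a mean of 50 counts). Tet3 ran from 0.13 to 0.23 on the log2 scale, Dnmt1 from -0.16 to -0.096. The direction turned for Mbd1 (-0.075) and Mbd2 (-0.0069) without OVX+RJ 1 and for Uhrf1 (0.042) without OVX 2. With single libraries left out these genes ran from -0.075 to 0.081, from -0.0069 to 0.11 and from -0.25 to 0.042. The cause was not tested. The labels do not say whether replicate numbers pair the libraries. Deviations of same-numbered ones correlated at 0.046, -0.0024 and 0.0031, against -0.044 to 0.045 for the other pairs across diets. With so few libraries these values cannot show whether a pairing exists. With the block, no member had an unadjusted p under 0.05. Dnmt3b and Uhrf1 are limited by counts.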

Other observations

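The germline list held 3 genes with over 100 counts in each library of both diets. Brdt, a bromodomain gene known from testis, stood at 20.5, 21.7 and 19.8 CPM in OVX+RJ and at 19.8, 18.1 and 19.2 CPM in OVX. Dazl, an RNA-binding protein gene of germ cells, stood at 3.82, 4.27 and 3.30 CPM in OVX+RJ and at 3.83, 3.94 and 4.27 CPM in OVX. Ddx4, an RNA helicase gene of germ cells, stood at 3.25, 3.84 and 2.80 CPM in OVX+RJ and at 4.52, 4.13 and 3.24 CPM in OVX. Dazl was named after its values were seen, and which transcripts the counts come from was not tested.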
